A study of Mus musculus with 25 samples.

Results

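The genes described here carry glucose into the red cell and break it down: the glucose carrier Slc2a1, the hexokinases Hk1 and Hk2, the isomerase Gpi1, the phosphofructokinase subunits Pfkl and Pfkm, the aldolase Aldoa, the dehydrogenase Gapdh, the mutase Bpgm and the pyruvate kinase Pklr. They were chosen by their role in the pathway, as 10 of 22208 genes annotated as protein-coding on mm9 (GENCODE, vM1), and not by their binding. Earlier results of these data were known when the choice was made. An entry of a list belonged to a gene if it lay in the gene body or within 20 kb of it, which gave 248 of the 166131 entries of the 6 lists.

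GATA1 and TAL1 binding was mapped by ChIP-exo, in which an exonuclease trims the immunoprecipitated DNA up to the cross-linked protein, in 25 libraries of mouse erythroid cells of strain 129. The cells were G1E erythroid progenitors, which lack GATA1 and come from knockout embryonic stem cells, and G1E-ER4 cells, the same line with GATA1 restored as a fusion to the estrogen binding domain. G1E-ER4 cells were harvested at 0 h, before estradiol, and at 3 and 24 h of treatment, for which the labels give 10 nM estradiol and the study's methods a higher dose. For GATA1 there were 3 libraries at each time of G1E-ER4 and 1 of G1E, and for TAL1 there were 5, 3 and 3 libraries of G1E-ER4 at 0, 3 and 24 h and 4 of G1E. For each factor, the lists give peak pairs (a forward strand and a reverse strand peak facing each other across a cross-link), MultiGPS locations (called jointly over replicates and times) and final locations, which are MultiGPS locations with a peak pair within 100 bp. Each entry is 1 base of mm9, pooled over libraries and times, with no tag count, so that the lists show neither when a site was bound nor how strongly, and no difference between times could be tested. Depth and gene expression are not in the lists, and the identity of the cells was not checked.

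Mature red cells have no mitochondria, and glycolysis is their source of ATP. A side branch of the pathway, catalyzed by Bpgm, makes bisphosphoglycerate, which lowers the oxygen affinity of hemoglobin. GATA1 binds the sequence WGATAA, where W is A or T, through its zinc fingers and drives erythroid maturation, and TAL1 is a basic helix-loop-helix protein that binds E-boxes with an E protein partner and often joins GATA1 in one complex.

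GATA1 locations were found at 9 of the 10 genes and TAL1 locations at 5. Over all protein-coding genes, 30.1% had a final GATA1 location and 27.5% a final TAL1 location within the same distance. Hk1, Hk2, Pfkm, Bpgm and Pklr had both factors (5 of 10, against 21.5% of all genes), Slc2a1, Gpi1, Pfkl and Aldoa had GATA1 without TAL1, and Gapdh had neither. At each of the 5 genes with both factors, at least 1 GATA1 location was cooccupied, that is, it had a TAL1 location under 40 bp away (14.7% of all genes). With all MultiGPS locations counted, GATA1 was found at 10 genes (34.3% of all genes) and TAL1 at 8 (31.5%), and with all peak pairs each factor was found at 10 (57.4% and 61.2%). These are counts of genes chosen by name, and no test was made on them.

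In number, the genes had 28 final GATA1 and 19 final TAL1 locations, with a median per gene of 2.5 and 1.0, against 0.0 for either factor over all genes. Hk2, Pfkm and Bpgm had 5 GATA1 locations each, a number reached by 2.29% of all genes, and Pklr had 4 (4 or more in 4.16%). Hk1 had 3, Gpi1 and Aldoa had 2, and Slc2a1 and Pfkl had 1. Of TAL1, Pfkm and Bpgm had 5 locations each (5 or more in 6.32% of genes), Pklr had 4 (4 or more in 8.38%), Hk2 had 3 and Hk1 had 2. The windows around the 10 genes had a median length of 68394 bp, against 55526 bp over all genes, and those of Gapdh, Aldoa and Pklr were shorter than the latter. Per 100 kb of window there were 3.83 GATA1 and 2.6 TAL1 locations at the 10 genes, and 0.734 and 1.05 over the windows of all genes, in which a location close to several genes counts for each.

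**Figure D1:**
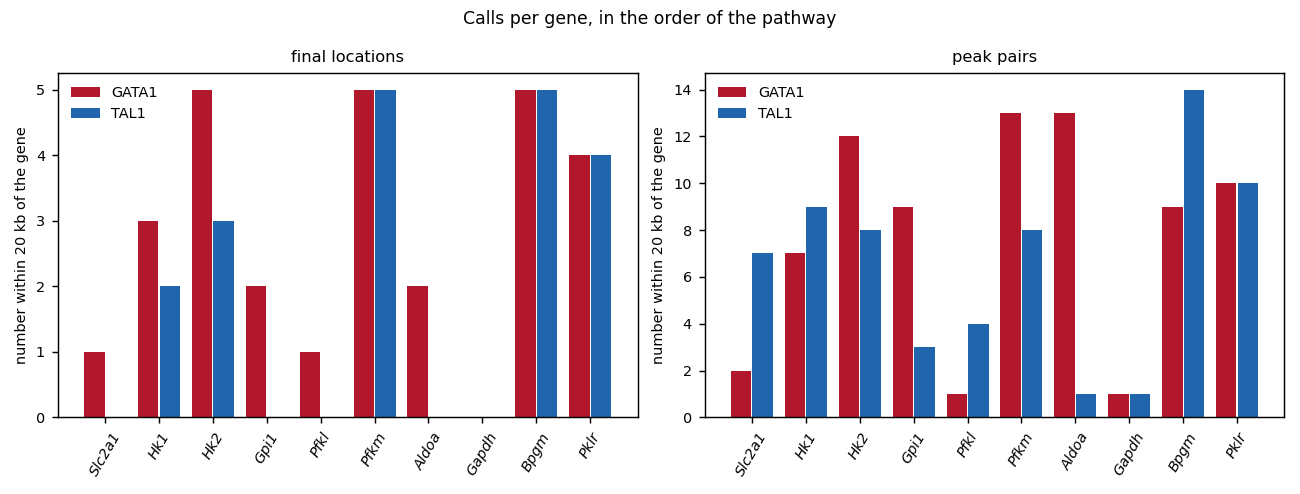
Number of final locations (left) and of peak pairs (right) of GATA1 (red bars) and TAL1 (blue bars) in or within 20 kb of each gene, with the genes in the order of the pathway. Pfkm and Bpgm have 5 final locations of each factor, and 5 genes have no final TAL1 location although all 10 have a TAL1 peak pair.

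**Figure D2:**
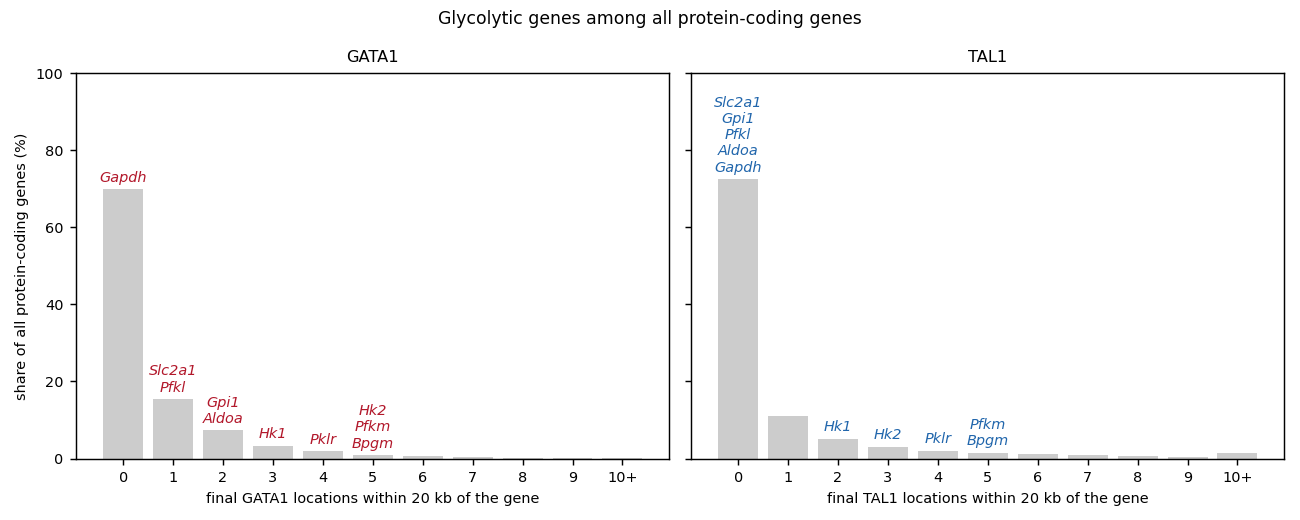
Share of all 22208 protein-coding genes (gray bars, percent) by the number of final GATA1 (left) or TAL1 (right) locations within 20 kb, with the names of the 10 genes above the bar they fall in. Most genes have none, and Hk2, Pfkm and Bpgm stand at 5 GATA1 locations.

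The sequences at the cooccupied GATA1 locations with WGATAA are shown first, since they carry the sites on which the rest of the description turns. Each runs 5′ to 3′ on the strand of its WGATAA, which is in capitals together with a TG that ends 7 or 8 bp before it, and each was read from mm9. The distance given is that of the GATA1 location from the start. The Hk1 sequence was held to 30 bases because it is in part an untranslated exon, and it spans the Hk1-013 start and the WGATAA but not the GATA1 location itself. The Bpgm sequence 9377 bp downstream and the Pklr sequence end short of the TAL1 locations, which are at 34436549 and 88936473.
Hk1, WGATAA beside the location 38 bp upstream of the Hk1-013 start, chr10:61805466-61805495, plus strand: cctcaggcagcctgggccAGATAAgcaact
Pfkm, 4412 bp downstream of the Pfkm-203 start, chr15:97946864-97946928, minus strand: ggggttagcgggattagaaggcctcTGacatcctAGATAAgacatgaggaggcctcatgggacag
Bpgm, 2670 bp upstream of the Bpgm-001 start, chr6:34423501-34423562, plus strand: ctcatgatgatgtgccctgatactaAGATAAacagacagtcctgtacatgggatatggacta
Bpgm, 9377 bp downstream of the Bpgm-005 start, chr6:34436467-34436544, minus strand: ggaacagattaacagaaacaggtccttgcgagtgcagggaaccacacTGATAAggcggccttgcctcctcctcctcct
Bpgm, 40827 bp downstream of the Bpgm-005 start, chr6:34467944-34468015, plus strand: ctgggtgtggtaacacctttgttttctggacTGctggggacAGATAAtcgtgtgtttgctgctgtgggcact
Pklr, 3618 bp upstream of the Pklr-001 start, chr3:88936406-88936471, minus strand: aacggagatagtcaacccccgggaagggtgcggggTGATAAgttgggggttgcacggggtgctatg

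The seventh cooccupied location, in the first intron of Hk2, had no exact WGATAA within 40 bp. Its sequence is given on the plus strand, with GATA followed by G in capitals, and was picked out after its values were seen.
Hk2, 8772 bp downstream of the Hk2-003 start, chr6:82714180-82714240, plus strand: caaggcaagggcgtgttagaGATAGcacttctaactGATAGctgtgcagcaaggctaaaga

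At these 7 places the GATA1 and TAL1 locations were 12 to 30 bp apart, with a median of 25 bp. Measured from the middle of WGATAA and along its strand, TAL1 lay before the motif at Hk1 (-9 bp), at Bpgm 10312 bp from the gene's 5′ end (-55 bp), at Bpgm 41762 bp from it (-33 bp) and at Pklr (-40 bp), and after the motif at Pfkm (13 bp) and at the Bpgm location 2670 bp upstream (20 bp). GATA1 lay at 21 bp at Hk1 and between -25 and 8 bp at the others. In 4 of these 6 places the TAL1 location was thus on the 5′ side of both the motif and the GATA1 location. At the other 2 it was on the 3′ side of both. Within 60 bp of the motif, TAL1 peak pairs lay on both sides at Hk1 (-15 and 13 bp), Pfkm (-38, 0 and 35 bp) and Pklr (-46, -15 and 35 bp). At the Bpgm places they lay on the side of the location (11, -30 and -22 bp). Hk1 also had another WGATAA, at 61805549 on the minus strand, with a TG 8 bp upstream. It was within 40 bp of the TAL1 location at 61805574 but not of the GATA1 location. The Hk1 offsets and counts here therefore leave it out, although a GATA1 peak pair was at 61805550. The TAL1 locations at -55 bp (Bpgm) and -40 bp (Pklr) had no exact WGATAA within 40 bp, but each had a GATA followed by A or G. Of the 6 WGATAA sites, 2 (Pfkm and the far Bpgm site) had a TG 7 or 8 bp upstream, the spacing at which part of an E-box is found beside WGATAA. Over all cooccupied GATA1 locations with WGATAA, 50.2% had one, which with 6 sites lies within the 95% exact binomial interval of 4.33 to 77.7%. Here and below, intervals cover counting error alone, and locations at 1 gene or 1 site are not independent of each other.

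**Figure D3:**
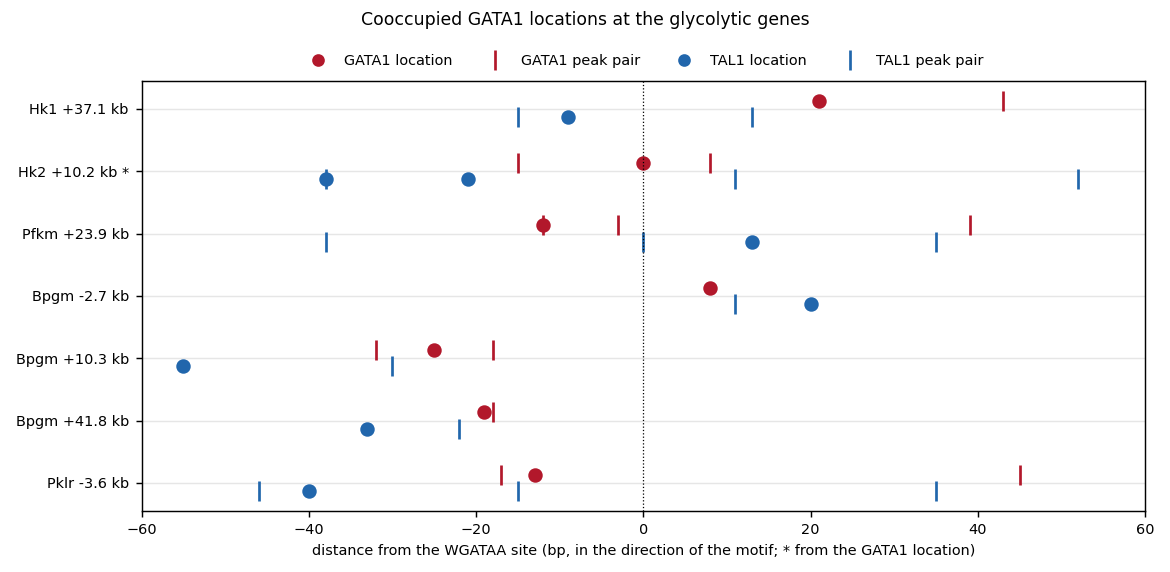
Positions of GATA1 (red) and TAL1 (blue) final locations (circles) and peak pairs (ticks) at the 7 cooccupied GATA1 locations, in bp from the middle of WGATAA in the direction of the motif. At Hk2, marked by an asterisk, distances are from the GATA1 location on the plus strand. Row names give the gene and the distance in kb from its 5′ end. TAL1 circles lie left of the GATA1 circle in 5 rows, Hk2 included, and right of it at Pfkm and at the Bpgm location upstream of the gene.

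Glucose uptake and the 2 hexokinases came first in the pathway and differed in their pattern. Slc2a1, which encodes the glucose transporter GLUT1 (chr4:118781316-118809935, plus strand), had 1 final GATA1 location, at 118810149, 214 bp past the end of the gene. It had no exact WGATAA within 40 bp, although it had a GATA followed by A or G, and a TAL1 peak pair lay 3 bp from it without a TAL1 location being called. The 1 TAL1 location that MultiGPS placed at Slc2a1 lay 11017 bp upstream of the start, at 118770299, held 2 WGATAA sites and an E-box of the form CAGMTG (M is A or C), and had no peak pair within 100 bp.

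Hk1, the hexokinase of red cells and brain (chr10:61731603-61842656, minus strand), has 11 annotated coding start sites, and 2 of its 3 GATA1 locations and both TAL1 locations lay close to internal ones. GATA1 was placed at 61790466, in the untranslated first exon of Hk1-017 and 49 bp downstream of its start, at 61795472 in intron 4, 4957 bp from the closest Hk1 start, and at 61805508, 38 bp upstream of the Hk1-013 start. TAL1 was placed 8 and 104 bp upstream of the same Hk1-013 start, at 61805478 and 61805574, the first of them 30 bp from GATA1. The 5′ end of the longest Hk1 gene model was 37148 bp or more from each GATA1 location.

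Hk2, the hexokinase of growing and insulin-sensitive tissue (chr6:82675019-82724448, minus strand), had 5 final GATA1 locations spread over its first 2 introns and its upstream side. They were at 82699694, 82706939, 82714210 and 82721580 in introns and at 82727324, 2876 bp upstream of the Hk2-001 start. All 3 final TAL1 locations lay beside 1 of them, at 82714105, 82714172 and 82714189, and 1 more TAL1 location, without a peak pair, stood 140 bp further on. The 4 GATA1 locations away from TAL1 each held 1 or 2 exact WGATAA sites, while the cooccupied one held none.

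Gpi1, which turns glucose phosphate into fructose phosphate (chr7:34987141-35015308, minus strand), had 2 final GATA1 locations. The one at 35011374 was in intron 4, 3926 bp downstream of the Gpi1 start. The other, at 34981791, was 111 bp from the start of the neighboring gene Pdcd2l and 33509 bp from that of Gpi1. Both held an exact WGATAA, and the closest TAL1 location was 54791 bp from the gene body.

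The phosphofructokinases catalyze the committed step of glycolysis and make up its main point of control, and the genes of its liver type and muscle type subunits had 1 and 10 final locations of both factors together. Pfkl (chr10:77449692-77472828, minus strand) had 1 GATA1 location, at 77471104 in its first intron, 1448 bp downstream of the start, with 1 GATA1 peak pair and no TAL1 location in any MultiGPS list. A TAL1 peak pair lay 1 bp from it all the same. The place had no exact WGATAA, and its sequence, chosen after its values were seen, holds GATA followed by G on either strand (in capitals), with 1 base between them.
Pfkl, 1448 bp downstream of the Pfkl-001 start, chr10:77471074-77471134, plus strand: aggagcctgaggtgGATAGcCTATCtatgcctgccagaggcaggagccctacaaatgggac

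Pfkm (chr15:97923020-97962878, plus strand) had 5 locations of each factor, and the factors stood apart except at 1 place. Of GATA1, 4 locations lay upstream of the closest annotated Pfkm start. The one at 97922947 was 73 bp upstream of the Pfkm-202 start, in an intron of the annotated Senp1. Those at 97937205, 97938602 and 97938735 were 1697, 300 and 167 bp upstream of the Pfkm-201 start, in intron 1 of Pfkm-202. No TAL1 peak pair lay within 100 bp of any of these 4, and each held at least 1 exact WGATAA. The fifth, at 97946903 in intron 2, closed a run of 5 TAL1 locations (97946568, 97946669, 97946734, 97946815 and 97946878) that were 63 to 101 bp from their closest neighbor. The last of these was 25 bp from GATA1, and it was the only one of the 5 with a WGATAA within 40 bp.

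The GATA1 locations close to a start of their own gene are shown next for Hk1, Pfkm and Aldoa, since in each TAL1 had no final location under 40 bp away. They were picked out after their values were seen, and WGATAA is in capitals. The Pfkm location 73 bp upstream of the Pfkm-202 start had 3 exact WGATAA within 40 bp. Its sequence ends before the last base of 1 of them, which is left in lower case. The Hk1 sequence was again held to 30 bases.
Hk1, 49 bp downstream of the Hk1-017 start, chr10:61790445-61790474, plus strand: ctgagggtgcgctggctcAGATAAggcccg
Pfkm, 73 bp upstream of the Pfkm-202 start, chr15:97922922-97922980, plus strand: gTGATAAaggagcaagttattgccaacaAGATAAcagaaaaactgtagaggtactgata
Pfkm, 300 bp upstream of the Pfkm-201 start, chr15:97938565-97938627, plus strand: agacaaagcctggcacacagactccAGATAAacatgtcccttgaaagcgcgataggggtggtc
Pfkm, 167 bp upstream of the Pfkm-201 start, chr15:97938708-97938763, plus strand: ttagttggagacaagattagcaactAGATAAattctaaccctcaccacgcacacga
Aldoa, 567 bp downstream of the Aldoa-003 start, chr7:133942060-133942115, plus strand: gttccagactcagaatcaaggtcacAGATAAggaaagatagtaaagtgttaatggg

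Aldoa, which splits fructose bisphosphate (chr7:133938748-133944265, minus strand), had 2 final GATA1 locations. One, at 133942088, was in its first intron, 567 bp downstream of the Aldoa-003 start, and WGATAA covered the location itself. The other, at 133920196, was 136 bp from the start of the neighboring gene Gm9967 and 22459 bp from the closest Aldoa start. A TAL1 location at 133920242, 46 bp from it, was called by MultiGPS without a peak pair, as was one at 133939907 inside Aldoa.

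Gapdh, which makes the NADH of glycolysis (chr6:125111871-125116485, minus strand), had no final location of either factor. The closest ones were 45979 bp (GATA1) and 57444 bp (TAL1) from the gene body. MultiGPS alone placed GATA1 at 125110416 and 125111561 and TAL1 at 125111553, the last 2 being 8 bp apart with a WGATAA 6 bp from GATA1. Both were in an untranslated exon annotated for the neighboring Iffo1. These calls had no peak pair within 100 bp.

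Bpgm (chr6:34426207-34455613, plus strand) had the most cooccupied locations of the 10 genes. Its 5 GATA1 locations were at 34421639, 34423537, 34436519, 34460465 and 34467969, and its 5 TAL1 locations at 34421684, 34423549, 34436549, 34458249 and 34467955. Of the GATA1 locations, 3 were cooccupied, at 12, 30 and 14 bp from TAL1, and 1.46% of all genes had 3 or more. At 34421639, 4568 bp upstream of the start, TAL1 was 45 bp away, just past the limit for cooccupancy. At 34460465 TAL1 was 2216 bp away. Each of the 5 GATA1 locations held 1 exact WGATAA, and no other protein-coding gene lay in the window.

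Pklr, the pyruvate kinase of red cells and liver (chr3:88940064-88950706, plus strand), had all 8 of its final locations upstream of the gene. GATA1 stood at 88927872, 88936446, 88936883 and 88937778, which were 12192, 3618, 3181 and 2286 bp upstream of the Pklr-001 start. TAL1 formed a group of 3 around the second of these, at 88936334, 88936473 and 88936616, and had 1 more location at 88939982, 82 bp upstream of the start. MultiGPS placed GATA1 31 bp from that one, at 88939951, 113 bp upstream of the start, but without a GATA1 peak pair within 100 bp, so that it was not a final location. The stretch around both calls had no GATA followed by A or G within 40 bp of either, and is shown because it lies at the start of the gene, a choice made after its values were seen.
Pklr, around 113 bp upstream of the Pklr-001 start, chr3:88939920-88940013, plus strand: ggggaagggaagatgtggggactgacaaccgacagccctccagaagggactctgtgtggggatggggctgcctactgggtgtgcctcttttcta

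**Figure D4:**
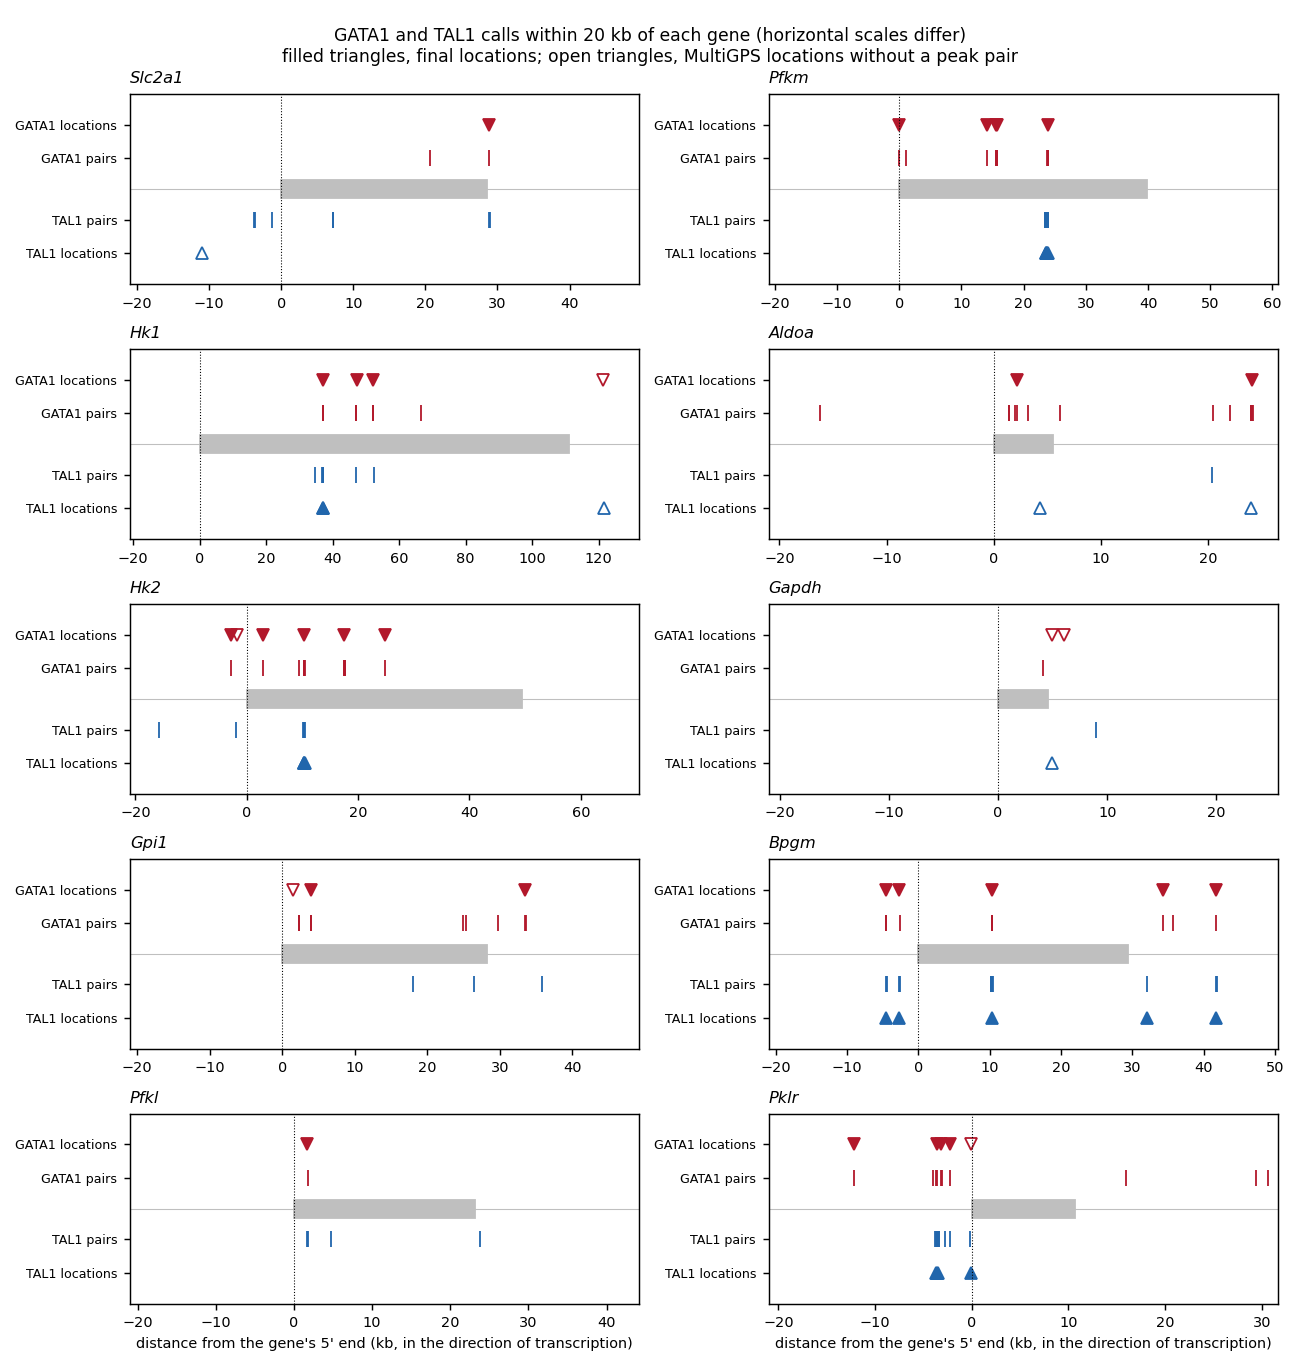
Map of each gene (gray box, 5′ end at 0, transcribed to the right) with final GATA1 (filled red) and TAL1 (filled blue) locations, MultiGPS locations without a peak pair (open triangles) and peak pairs (ticks), in kb from the 5′ end. Scales differ between genes. At Bpgm 3 of 5 GATA1 locations are cooccupied, at Pklr 1 of 4 and at Pfkm 1 of 5, where all TAL1 locations lie in 1 group.

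Taking the 28 GATA1 locations as a whole, 15 were in introns, 2 in untranslated exons, 0 in coding exons and 11 outside protein-coding genes. The body of the member gene itself held 15 of them, and for 26 the closest coding start was one of the member gene. Within 1 kb of any coding start lay 8, or 28.6% (95% exact binomial interval, 13.2 to 48.7%), while 10.4% of all GATA1 locations did. Of the 8, 6 were at Hk1, Pfkm and Aldoa starts and 2 at the neighboring genes Pdcd2l and Gm9967. Of the 19 TAL1 locations, 11 were in introns and 8 outside genes, and 3 were within 1 kb of a start (15.8%, interval 3.38 to 39.6%, against 7.46% of all). For both factors these shares are not of like sets. Locations at the 10 genes lie within 20 kb of a gene by rule, while the whole lists include locations far from any gene. No share over the windows of all genes was computed, so a preference for starts was not tested.

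An exact WGATAA lay within 40 bp of 23 of the 28 GATA1 locations, or 82.1% (interval 63.1 to 93.9%), against 66.5% of all GATA1 locations. In windows moved by 1 kb it was found at 1 of the 28 and at 8.29% of all. The 5 GATA1 locations without it were 1 each at Slc2a1, Hk1, Hk2, Pfkl and Pklr, and 4 of these had GATA followed by A or G, the exception being the Pklr location 3181 bp upstream. A TG 7 or 8 bp before WGATAA was found at 4 of the 23 (17.4%, interval 4.95 to 38.8%), against 32.9% of all. The E-box CAGMTG, read on both strands, lay within 40 bp of 3 GATA1 locations (10.7%, against 17.2% of all), 1 each at Hk2, Pfkm and Pklr.

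TAL1 locations had WGATAA within 40 bp at 7 of 19 (36.8%, interval 16.3 to 61.6%, against 45.9% of all), and CAGMTG at 1 of 19, in the first intron of Bpgm (5.26%, against 21.7% of all). Those 7 were at Hk1, Pfkm and Bpgm, and none of the TAL1 locations at Hk2 or Pklr held it. A TG 7 or 8 bp before WGATAA was found at 5 of the 7 (71.4%, interval 29.0 to 96.3%). Of all TAL1 locations with WGATAA, 54.5% had one. In homotypic clusters, defined by another TAL1 location under 500 bp away, lay 13 of 19 (68.4%, interval 43.4 to 87.4%, against 64.4% of all). The clusters were the runs of 2 at Hk1, 3 at Hk2, 5 at Pfkm and 3 at Pklr, while the 5 at Bpgm were all single. Of GATA1, 4 of 28 (14.3%, against 13.7% of all) were in clusters, as 2 at Pfkm and 2 at Pklr.

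Of the GATA1 locations, 7 of 28 (25%, interval 10.7 to 44.9%) were cooccupied, against 35.9% of all GATA1 locations. From the side of TAL1, 8 of 19 (42.1%, interval 20.3 to 66.5%) had GATA1 under 40 bp away, against 27.5% of all. Of the 21 GATA1 locations that were not cooccupied, 4 had a TAL1 peak pair or a MultiGPS call under 40 bp away. The other 17 had no TAL1 call of any kind within that distance. The same split over all GATA1 locations was not computed, so it cannot be read as particular to these genes. WGATAA was present at 6 of 7 cooccupied locations (85.7%, against 71.1% of all) and at 17 of the 21 others (81%, against 63.9%).

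Other genes of glucose metabolism were counted in the same way, as a list of 31 genes chosen by their role and not by their binding. Earlier results of these data were known when the list was drawn up. It holds glucose and lactate carriers, further but not all enzymes of glycolysis, the regulators of phosphofructokinase, lactate dehydrogenases and the pentose phosphate branch. Of the 31 genes, 17 had GATA1 (54.8%, against 30.1% of all genes), 17 had TAL1 (54.8%, against 27.5%), 10 had a cooccupied location (32.3%, against 14.7%) and 10 had neither factor, with a median of 1.0 location per gene for each factor. The 3 genes with the most locations were Pkm2, the pyruvate kinase of most tissues other than red cells and liver, with 2 GATA1 and 6 TAL1 locations, Pgam1, the phosphoglycerate mutase, with 5 and 2, and Pfkfb2, which sets the level of the activator of phosphofructokinase, with 3 and 3. Each had 1 cooccupied GATA1 location. Next came 6 genes tied at 5 locations of both factors together: Adpgk, a glucokinase that uses ADP, Eno3, Rpia, Slc16a3, Slc2a3 and Taldo1. Of these, Eno3 had 2 cooccupied locations, Slc16a3, Slc2a3 and Taldo1 had 1 each, and Adpgk and Rpia had 0.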

How the data were processed

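The deposited lists hold single mm9 positions. The authors aligned reads with Bowtie 1.00 or BWA (0.6.2, 0.7.9a), by the submitters' processing notes, merged replicates, removed blacklisted regions, paired GeneTrack peaks of opposite strands and ran MultiGPS. The positions they deposited carry no signal, score or time, and 0 columns of single samples were present. By the study's methods the GATA1 lists pool G1E-ER4 libraries, while the labels also link the G1E library. Here, entries were assigned to genes within 20 kb of the body. Cooccupied means under 40 bp, a cluster under 500 bp, and WGATAA the exact string, whole within 40 bp, either strand. The exact string was taken in place of a weight matrix so that it can be read in the sequences. A matrix of 8 bp, learned from 500 windows of 81 bp, was an alternative, and windows moved by 1 kb gave the background. Start sites are those of coding transcripts. Intervals are exact binomial (95%). All 10 genes, their final locations, the closest neighbors and up to 4 further genes of the pathway list were named by rule. The genes tied with the last of those 4 were named in addition to the rule. The members and lists were chosen with earlier results of these data known. Counting was tested on simulated data. Python 3.11.15, numpy 2.4.6, scipy 1.17.1 and matplotlib 3.10.9 were used.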

Additional observations from a re-analysis of the deposited data

How the results depend on the processing

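Of 47 alternative values for 11 results, 34 stayed within 1.5 times the count or within the interval, 9 moved up and 4 down. Counting all peak pairs in place of final locations gave 77 GATA1 and 65 TAL1 entries, TAL1 at 10 of 10 genes and at 26 of the 31 further pathway genes. Counting all MultiGPS locations gave TAL1 at 8 of 10 genes. Those lists also reached more of all genes. With cooccupancy under 20 bp, 1 gene (Bpgm) and 7.14% of GATA1 locations were left. The shares of all genes and of all GATA1 locations under that limit were not computed. WGATAA by the weight matrix or as GATA followed by A or G was found at 96.4% of GATA1 and 63.2% of TAL1 locations, and the exact string within 20 bp at 53.6% and 15.8%. Over all locations the matrix gave 82.0 and 57.6%, GATA followed by A or G 84.8 and 61.3%, and the string within 20 bp 45.4 and 22.1%. The TAL1 share at the 10 genes was thus below that of all locations with the exact string, and above it with the looser motifs, each share over all locations lying within the interval at the 10 genes. These follow from looser and stricter definitions. With windows of 10 or 50 kb, 9 or 10 genes had GATA1 and 5 or 6 had TAL1, while the shares of all genes went from 23.9 to 42.7% and from 21.3 to 40.3%. No paired analysis was possible because the lists pool the libraries and carry no replicate, and no library could be left out for the same reason. With 28 and 19 locations, shares are known only to within their wide intervals, and the lists hold no depth.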

Other observations

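Peak pairs away from any MultiGPS location made up 28 of the 77 GATA1 pairs (36.4%, against 53.9% of all GATA1 pairs) and 28 of the 65 TAL1 pairs (43.1%, against 49.9%) at the 10 genes. Aldoa had 13 GATA1 pairs, as many as Pfkm, yet 9 of them were at no MultiGPS location, and at Pfkm 1 was. Slc2a1 had 7 TAL1 pairs, none of them at a MultiGPS location, of which 3 were upstream of the gene, 2 in it and 2 past its end. At Bpgm 11 of 14 TAL1 pairs were at a final location, and at Pfkm all 8 were.

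Of the MultiGPS locations without a peak pair, a GATA1 call at 61721239 and a TAL1 call at 61721232 near Hk1 were 7 bp apart, in an intron of the neighboring gene Tacr2, with no GATA followed by A or G within 40 bp. The call upstream of Hk2, at 82726249, lay at the end of a run of GATA repeats, and its sequence was picked out after it was seen.
Hk2, 1801 bp upstream of the Hk2-001 start, chr6:82726221-82726276, plus strand: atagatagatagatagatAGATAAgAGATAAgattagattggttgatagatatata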
